A study of Homo sapiens with 18 samples.

Results

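BxPC-3 is an established human pancreatic cancer cell line, and every library described here came from that 1 line. The comparison set cells given macrophage-stimulating protein (MSP) at 100 ng/ml for 4 h against cells given the vehicle, phosphate-buffered saline, for 4 h. It used 6 of the 18 libraries of the study, 3 for each group, and all 16794 of 58395 gene identifiers that passed a filter on low counts. A further 3 groups of 3 libraries served as points of reference: MSP at 100 ng/ml for 1 h, hepatocyte growth factor (HGF) at 80 ng/ml for 4 h, and vehicle for 1 h. Per the labels the cells were grown in RPMI with 10% fetal bovine serum, and whether serum was withdrawn before treatment is not stated. The labels speak of triplicates without saying whether these were separate cultures, and p-values therefore measure the spread between libraries, which may be technical.

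MSP is a secreted protein, made from the gene MST1 as an inactive precursor, that binds the receptor tyrosine kinase RON, made from MST1R. Bound RON signals through the RAS-ERK and PI3K-AKT pathways, as does its relative MET, the receptor of HGF. ERK switches on immediate-early transcription factors, which are followed by feedback inhibitors and later target genes. AKT keeps FOXO transcription factors out of the nucleus, so that their target genes are read less. In epithelial cells RON is known for effects on motility, survival and spreading. The question of the comparison is what was left of, or newly added to, the transcriptional response 4 h after MSP.

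The 4 h response to MSP was small in number and in size. Genes were called at an adjusted p under 0.05, taken from edgeR (quasi-likelihood F test) after Benjamini-Hochberg correction over every gene tested. MSP-treated cells had 130 genes higher and 49 lower than vehicle-treated cells, 179 in all or 1.07% of the genes tested (0.774% higher, 0.292% lower). The rises reached from the cytoskeletal and scaffold genes TPM4, ACTB and AKAP12 to the nucleolar genes NOP56 and DKC1, and the falls included the pro-apoptotic gene BMF, the PI3K inhibitor PIK3IP1 and the interferon-induced gene IFIT2. Only 3 of the rises and 1 of the falls were 2-fold or more, and 9 and 3 were 1.5-fold or more. The median absolute log2 fold change was 0.26 among called genes and 0.09 among all genes tested. Of the calls, 120 rises and 46 falls were protein-coding genes. Every MSP library lay beyond every vehicle library for 130 of the 130 rises and 48 of the 49 falls. In bulk libraries, fewer cells that express a gene and less RNA of it per cell cannot be told apart. Among all genes tested, such separation was met by 9.85% with MSP above and by 9.13% with MSP below.

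Total counts per library were 33799700 to 43382621 after MSP and 31258894 to 33937712 after vehicle, and MSP replicate 1 was the deepest of the 6. Mitochondrial transcripts took 8.36% to 8.42% of counts in MSP libraries and 8.73% to 8.98% in vehicle libraries, and their part in the results was not tested. SMAD4 and CDKN2A, which BxPC-3 is known to have lost, had 0 counts in all 6 libraries. The summed counts of 9 epithelial and ductal markers were 213465 to 263115 after MSP and 186486 to 202437 after vehicle. Markers of other cells were low in both groups: 26 to 57 against 25 to 35 counts for 8 acinar genes, 0 to 2 in both groups for 6 islet genes, and 85 to 139 against 81 to 101 for 7 leukocyte genes. The 10 fibroblast genes summed to 666 to 905 after MSP and 637 to 723 after vehicle. The 5 endothelial genes summed to 233 to 348 and 253 to 288 counts. These sums are raw counts and rise with the depth of a library. As CPM, the 9 epithelial markers summed to 5783 to 6121 after MSP and 5745 to 5977 after vehicle. The 4 fibroblast genes tested summed to 18.55 to 21.41 and 18.73 to 21.81 CPM, overlapping between the groups. The 4 endothelial genes tested summed to 6.28 to 7.77 and 7.82 to 8.56 CPM, lower after MSP, with 0 genes called.

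Promoter sequences are shown for 3 called genes, chosen after their values were seen, because each holds a motif of a pathway that the gene lists cover. They are the 250 bases before the RefSeq gene start on GRCh38.p14. The first 2 belong to AKAP12 (chr6:151239717-151239966, plus strand) and TPM4 (chr19:16067288-16067537, plus strand), both higher after MSP, with the CArG box of serum response factor (SRF) in capitals. The last belongs to IFIT3 (chr10:89327747-89327996, plus strand), lower after MSP, with both matches to the interferon-stimulated response element (GAAA, any 2 bases, GAAA, read on the opposite strand) in capitals.
AKAP12: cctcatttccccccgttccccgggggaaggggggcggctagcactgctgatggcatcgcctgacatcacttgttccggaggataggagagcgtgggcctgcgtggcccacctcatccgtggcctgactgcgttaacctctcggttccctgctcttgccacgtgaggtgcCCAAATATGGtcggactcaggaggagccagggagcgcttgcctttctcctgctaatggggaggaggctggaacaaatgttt
TPM4: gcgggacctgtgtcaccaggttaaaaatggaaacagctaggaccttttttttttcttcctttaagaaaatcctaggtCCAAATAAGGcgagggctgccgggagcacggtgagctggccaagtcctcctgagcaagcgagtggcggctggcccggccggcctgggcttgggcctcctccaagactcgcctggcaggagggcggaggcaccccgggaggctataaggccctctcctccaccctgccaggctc
IFIT3: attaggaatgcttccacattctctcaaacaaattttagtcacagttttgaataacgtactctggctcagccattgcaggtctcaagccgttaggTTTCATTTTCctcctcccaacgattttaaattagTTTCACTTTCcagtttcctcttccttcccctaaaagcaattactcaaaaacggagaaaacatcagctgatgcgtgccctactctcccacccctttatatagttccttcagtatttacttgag

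These matches were searched on both strands in the 88 rises, 40 falls and 11459 tested genes that had an entry in the promoter table. The CArG box stood in 2.27% of the promoters of rises (AKAP12 and TPM4), in 2.5% of those of falls (FOXP2) and in 1.01% of all. The interferon-stimulated response element stood in 7.5% of promoters of falls (CDC42EP3, TNFSF10 and IFIT3), in 2.27% of those of rises and in 2.3% of all. The forkhead letters GTAAACA stood in 7.5% of promoters of falls (TFDP2, RASSF6 and HBP1), in 1.14% of those of rises and in 2.16% of all. The E-box CACGTG stood in 11.4% of promoters of rises, 5% of falls and 8.46% of all. The AP-1 letters TGANTCA stood in 1.14% of promoters of rises, 2.5% of falls and 4.5% of all, and the ETS letters CCGGAAG in 10.2% of rises, 2.5% of falls and 15% of all. Among called list members, BMF and PIK3IP1 had no forkhead match, STAT2 no interferon element and ACTN1 no CArG box. FBXO32, IFIT2, TAGLN and ACTB had no entry in the promoter table. A match describes the letters of this window and not a bound site, and the counts behind the shares of called genes were 10 or fewer.

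Neither receptor moved past the test. MST1R (ENSG00000164078, chr3:49887002-49903873), the receptor of MSP, had 73.6, 72.5 and 70.8 CPM (counts relative to the library's total, corrected by TMM factors) after MSP, against 70.1, 62.0 and 61.8 CPM after vehicle. The MSP libraries all lay above the vehicle libraries, but the log2 fold change of 0.16 (SE 0.06) had an adjusted p of 0.267 in edgeR's test. MET (ENSG00000105976), the receptor of HGF, had 763, 794 and 799 CPM after MSP and 828, 795 and 828 CPM after vehicle, a log2 fold change of -0.06 (SE 0.04, adjusted p = 0.634). MST1, which encodes MSP itself, had 29 to 34 counts per library after MSP and 29 to 41 after vehicle, and it overlaps APEH and RNF123 on the other strand. HGF had 0 counts in all 6 libraries, which allows up to 0.0692 to 0.0888 CPM after MSP and 0.0884 to 0.096 CPM after vehicle (3 counts of the library total, counting error only). In the list of ligands, receptors and activators 0 of 19 tested genes were called by edgeR and 0 by DESeq2 (4 had an unadjusted p under 0.05), with a median log2 fold change of -0.02 beside -0.003 for all genes tested.

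Of the genes that SRF and YAP control or that build the actin cytoskeleton, 5 of 20 tested rose after MSP, beside 0.774% of all genes, and 0 fell. The median log2 fold change of the list was 0.10. AKAP12 (ENSG00000131016, chr6:151239999-151358557), a scaffold for protein kinases A and C, had 18, 28.4 and 23.0 CPM after MSP, against 13.6, 11.6 and 10.7 CPM after vehicle. The groups did not overlap, which the rule for naming the largest rises required, and MSP replicate 1 lay nearest to vehicle replicate 1. Its log2 fold change of 0.94 (SE 0.15, adjusted p = 0.0111) was the largest among protein-coding genes called. TAGLN (ENSG00000149591), an actin-binding protein of smooth muscle and spreading cells, had 4.77, 4.39 and 5.12 CPM after MSP and 3.98, 2.71 and 2.16 CPM after vehicle (log2 fold change 0.70, SE 0.16, adjusted p = 0.0372). TAGLN shares its locus with PCSK7 on the other strand, so some of its counts may belong to that gene. TPM4 (ENSG00000167460, chr19:16067021-16103005), a tropomyosin that lies along actin filaments, had 497, 514 and 495 CPM after MSP, against 430, 418 and 420 CPM after vehicle. TPM4 overlaps an unnamed transcript on the other strand. The difference was small and the spread tight, at a log2 fold change of 0.25 (SE 0.04, adjusted p = 0.00076). ACTB, beta-actin, had 3846, 4196 and 3908 CPM after MSP and 3679, 3374 and 3422 CPM after vehicle (log2 fold change 0.19, SE 0.04, adjusted p = 0.0164). ACTN1, the actin cross-linker alpha-actinin, had 488, 530 and 518 CPM after MSP and 480, 422 and 430 CPM after vehicle (log2 fold change 0.20, SE 0.05, adjusted p = 0.0182). The YAP target CCN2 was at 1.6, 1.69 and 1.75 CPM after MSP and 2.32, 1.52 and 1.84 CPM after vehicle, overlapping between the groups. The list held 2 calls without MSP replicate 2, 3 without MSP replicate 3, and 1 without vehicle replicate 2 or vehicle replicate 3.

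Genes that act downstream of ERK held 0 to 2 calls a list, beside 0.774% of all genes tested called higher. Of 24 ERK feedback genes 2 rose and 0 fell, with a list median of 0.11 and 19 of the 24 above 0, beside 49.1% of all genes tested. DUSP5 (ENSG00000138166), a nuclear phosphatase of ERK, had 139, 152 and 140 CPM after MSP, against 128, 119 and 113 CPM after vehicle (log2 fold change 0.26, SE 0.05, adjusted p = 0.00622). SPRY4, a Sprouty inhibitor of RAS-ERK signalling, had 11.1, 12.2 and 12.2 CPM after MSP and 8.96, 9.01 and 9.28 CPM after vehicle (log2 fold change 0.38, SE 0.09, adjusted p = 0.0202). For both genes the MSP libraries lay above the vehicle libraries. The list held 0 calls without MSP replicate 2 or vehicle replicate 3, and 1 without MSP replicate 3 or vehicle replicate 1 or 2. FOSL1 (ENSG00000175592), which encodes the AP-1 subunit FRA1, was the 1 gene called among 15 delayed AP-1 and ETS genes. It had 39.2, 44.2 and 43.9 CPM after MSP, against 35.3, 29 and 27.7 CPM after vehicle, with a log2 fold change of 0.47 (SE 0.09, adjusted p = 0.0139). Of 30 immediate-early genes only MAFF, a small MAF transcription factor, rose (20.5, 20.5 and 20.1 CPM after MSP, 16.6, 17.9 and 17 CPM after vehicle; log2 fold change 0.25, SE 0.06, adjusted p = 0.027). MAFF lost its call whichever library was left out. None of 8 EGF-family ligand genes was called by edgeR or DESeq2 (3 had an unadjusted p under 0.05), and their median log2 fold change was 0.13.

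Among lists of secreted and surface proteins, 3 held 1 call each, beside 0.774% of all genes tested called higher. VEGFA, the endothelial growth factor, was called among 14 angiogenic factors, with 168, 179 and 166 CPM after MSP and 146, 160 and 137 CPM after vehicle (log2 fold change 0.21, SE 0.05, adjusted p = 0.027). MMP13, a collagenase, was called among 21 plasminogen activators, metalloproteinases and inhibitors, with 34.7, 34 and 35 CPM after MSP and 28.7, 27.6 and 28.7 CPM after vehicle (log2 fold change 0.29, SE 0.06, adjusted p = 0.0164). TNFRSF12A, the receptor of the cytokine TWEAK, was called among 24 cytokine, chemokine and NF-kB genes (log2 fold change 0.26, SE 0.05, adjusted p = 0.0111). STC1 (ENSG00000159167), the secreted glycoprotein stanniocalcin, had 7.46, 8.66 and 8.09 CPM after MSP, against 5.78, 5.41 and 4.97 CPM after vehicle. Its log2 fold change of 0.58 (SE 0.08, adjusted p = 0.00076) stood with the smallest adjusted p values of the comparison. Apart from ACTB among 16 housekeeping genes, single genes also rose in 4 other lists: ODC1, the first enzyme of polyamine synthesis, HK2, a hexokinase, AEN, a p53-induced nuclease, and HSPA8, the constitutive HSP70 chaperone. Their log2 fold changes were 0.25, 0.22, 0.36 and 0.20. In their lists 15 of 22, 14 of 16, 7 of 15 and 6 of 13 tested genes were above 0, beside 49.1% of all genes tested. The list of HK2, glycolysis and glucose uptake, had a median of 0.08 and 7 genes at an unadjusted p under 0.05 by edgeR. By edgeR no gene was called among 20 genes of epithelial junctions, 12 mesenchymal genes, 19 integrin and laminin genes, 17 cholesterol synthesis genes, 17 genes of ATF4 and endoplasmic reticulum stress, 15 genes of TGF-beta, BMP and SMAD signalling or 16 circadian clock genes. At an unadjusted p under 0.05 these lists held 5, 2, 3, 0, 3, 3 and 4 genes, in the order given, and DESeq2 called 1 gene of epithelial junctions, 2 of ATF4 and endoplasmic reticulum stress and 0 in the others.

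The rest of the named rises were transcripts at low level or with less familiar roles. LINC02725 (ENSG00000273415, chr11:128096042-128183554), a long non-coding RNA, had 4.88, 4.33 and 4.96 CPM after MSP, against 2.75, 3.06 and 2.90 CPM after vehicle (log2 fold change 0.70, SE 0.12, adjusted p = 0.00392). RPL17P18, a processed pseudogene, had the largest change of the named genes at 1.29 (SE 0.29, adjusted p = 0.0204), from 65, 89 and 40 counts after MSP and 20, 30 and 19 counts after vehicle. With EEF1A1P12, RPL24P4 and RPSAP52 it belongs to 4 pseudogenes among the 14 largest rises, and how reads were shared with their parent genes is not known. SH2D5, TMEM158, PAQR5, RAB7B and MDGA1 complete the 14, with log2 fold changes of 0.64, 0.58, 0.52, 0.49 and 0.44. SH2D5 encodes an adaptor protein, PAQR5 a membrane progesterone receptor, RAB7B a small GTPase of vesicle traffic and MDGA1 a cell surface protein of the immunoglobulin family.

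Targets of FOXO transcription factors and the alpha-arrestins were mostly below 0: 3 of 21 tested fell after MSP, beside 0.292% of all genes, 0 rose, and 19 of the 21 had a negative log2 fold change (49.1% of all genes were above 0), with a median of -0.14. The list stood about as low at 1 h, with a median of -0.12 and 3 genes called lower, beside 0.0536% of all genes. The members called lower at 1 h were not called at 4 h, and the difference between the times was called for 0 members. BMF (ENSG00000104081, chr15:40087890-40108892), a pro-apoptotic relative of BCL2, had 22, 20.1 and 19.7 CPM after MSP, against 28.3, 28.4 and 27.1 CPM after vehicle (log2 fold change -0.44, SE 0.07, adjusted p = 0.00076). PIK3IP1 (ENSG00000100100, chr22:31281593-31292534), an inhibitor of PI3K, had 48.7, 47.7 and 47.2 CPM after MSP, against 57.7, 66.8 and 65.9 CPM after vehicle (log2 fold change -0.41, SE 0.06, adjusted p = 0.00076). FBXO32, the ubiquitin ligase subunit atrogin-1, had 50.3, 44.6 and 44.6 CPM after MSP, against 54.3, 61.2 and 61.9 CPM after vehicle (log2 fold change -0.35, SE 0.06, adjusted p = 0.00572). In all 3 genes every MSP library lay below every vehicle library, which the rule for naming the largest falls required. PIK3IP1 has a divergent transcript, PIK3IP1-DT, on the other strand. The members that did not pass included KLHL24 at -0.29 and TXNIP at -0.23, and the members above 0 were TRIB2 at 0.07 and ARRDC2 at 0.08. The list held 2 calls without MSP replicate 2 or vehicle replicate 2 or 3, and 6 without vehicle replicate 1.

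Genes of the interferon response were also mostly below 0, with 3 of 17 tested lower after MSP beside 0.292% of all genes, 0 higher, 16 of 17 negative where 49.1% of all genes were above 0, and a median log2 fold change of -0.09. IFIT2 (ENSG00000119922, chr10:89283694-89309276), an RNA-binding antiviral protein, had 25.4, 26.6 and 27.1 CPM after MSP, against 37.1, 32.6 and 33.3 CPM after vehicle (log2 fold change -0.38, SE 0.06, adjusted p = 0.00076). LIPA lies on the other strand of this locus. IFIT3, which acts with IFIT2, had 31.9, 31.0 and 31.5 CPM after MSP and 39.4, 35 and 36.9 CPM after vehicle (log2 fold change -0.24, SE 0.06, adjusted p = 0.0477), and it lost its call whichever library was left out. STAT2, the transcription factor of the type I interferon response, had 77.9, 74.0 and 80.4 CPM after MSP and 88.2, 99.8 and 92.8 CPM after vehicle (log2 fold change -0.27, SE 0.05, adjusted p = 0.00883). None of the 3 overlapped between groups, which for IFIT2 the rule for naming the largest falls required. IFIT1 had a log2 fold change of -0.33 (adjusted p = 0.0895) and ISG15 one of -0.03. The list held 1 call without MSP replicate 2 or vehicle replicate 2 or 3, and 2 without any other of the 6 libraries.

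The remaining named falls had no list in common. PLSCR4, a phospholipid scramblase, had 3.89, 3.35 and 4.21 CPM after MSP, against 6.05, 5.83 and 5.65 CPM after vehicle. Its log2 fold change of -0.61 (SE 0.11, adjusted p = 0.005) was the largest of the named falls. SLC40A1, the iron exporter ferroportin, had 28.8, 25.4 and 26.7 CPM after MSP and 31.7, 36.9 and 35.8 CPM after vehicle (log2 fold change -0.37, SE 0.07, adjusted p = 0.00768). FOXP2, a forkhead transcription factor, was lower by a log2 fold change of -0.45, ELAPOR1 by -0.47, MVB12B, an ESCRT-I subunit of endosomal sorting, by -0.38 and the cytoskeletal adaptor SORBS2 by -0.36. A pair of lists had almost every member below 0 and no call: 17 of 18 genes of G2/M and mitosis (median -0.10) and 13 of 13 mitochondrially encoded genes (median -0.07). At an unadjusted p under 0.05 they held 4 and 2 genes, and DESeq2 called 0 in both. In a fit of the 6 libraries of the comparison alone 4 of the G2/M genes were called. The summed level of the mitochondrial list was 57020 to 58640 CPM after MSP and 60170 to 62080 CPM after vehicle.

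**Figure D1:**
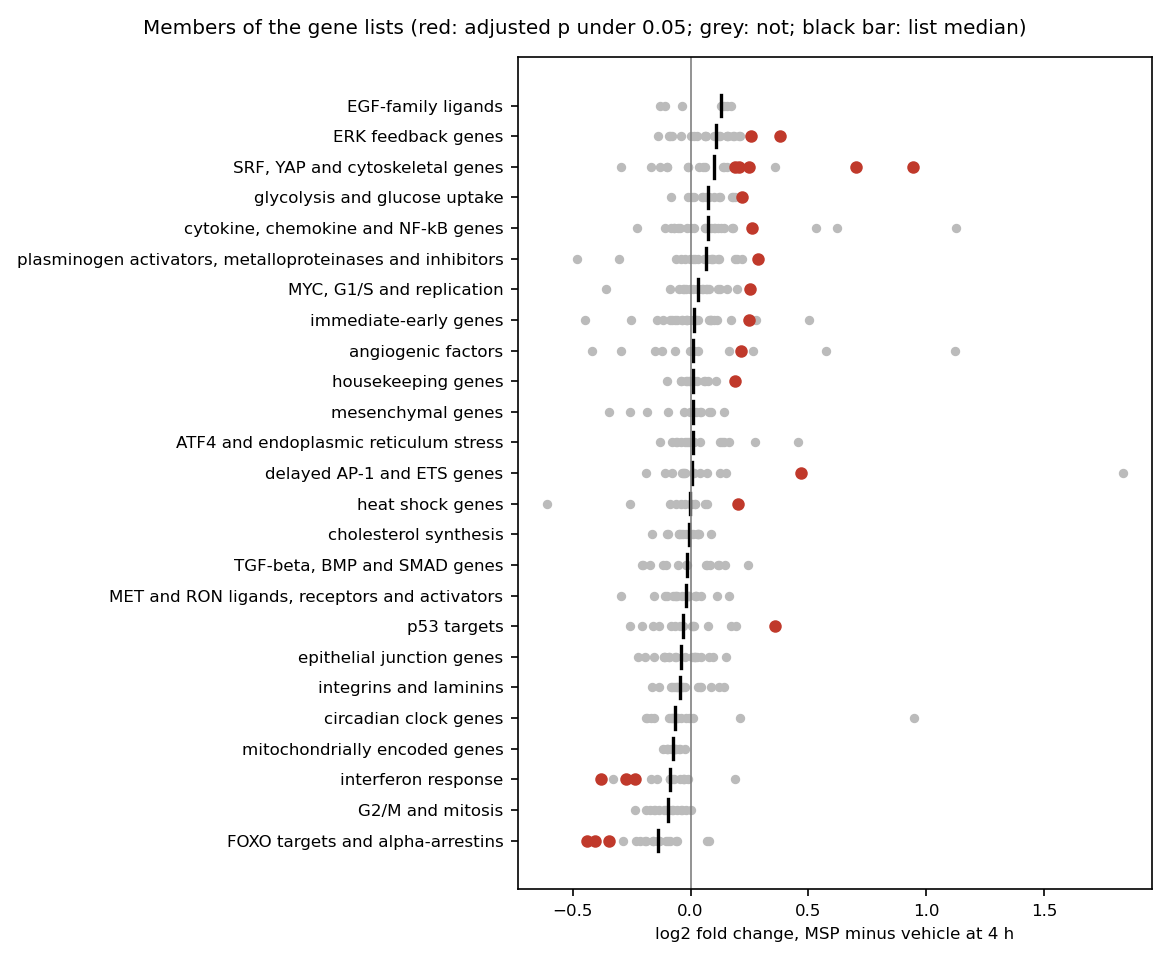
Log2 fold change of each tested member of the 25 gene lists, MSP minus vehicle at 4 h, with lists ordered by their median (black bar) and genes at an adjusted p under 0.05 in red. The cytoskeletal list holds 5 rises, and the FOXO and interferon lists hold 3 falls each and have medians of -0.14 and -0.09.

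Over the 25 lists, 438 of 461 genes were tested, 16 rose and 6 fell, beside 0.774% and 0.292% of all genes tested. These lists were drawn up with earlier results of the same data known, so their counts describe and do not support a direction. In the plot of list members some genes that did not pass the test lie farther from 0 than those that did.

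**Figure D2:**
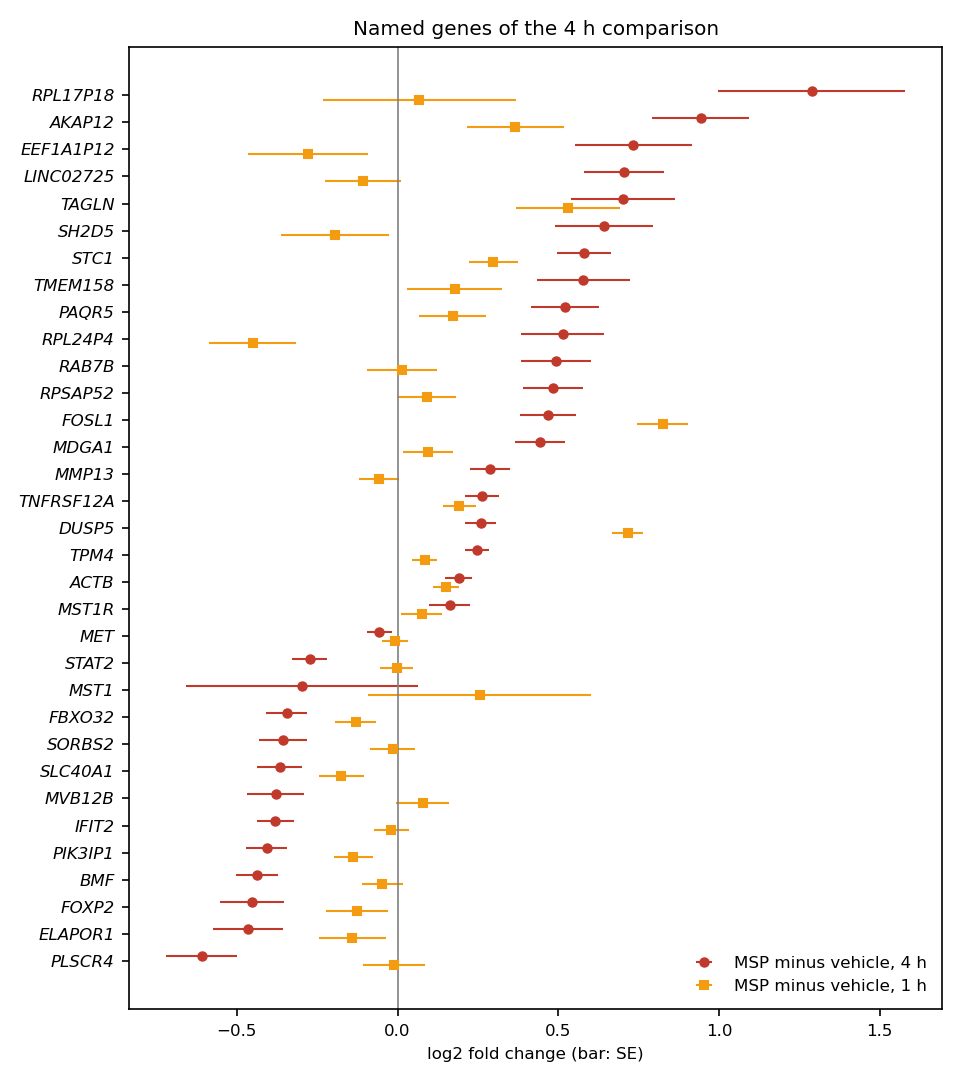
Log2 fold change (point) with its SE (bar) of the named genes of the 4 h comparison, MSP minus vehicle at 4 h in red and at 1 h in orange. FOSL1 and DUSP5 were further from 0 at 1 h, while BMF and IFIT2 lay near 0 at 1 h and at -0.44 and -0.38 at 4 h. The difference between the times passed edgeR's test for DUSP5 and IFIT2. It did not pass for FOSL1 (adjusted p = 0.337 by edgeR) or BMF.

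Few genes were called at both times, though a larger share than among all genes tested. Few of the 4 h calls passed the test of the difference between the times. The 1 h comparison used other MSP and other vehicle libraries, and it called 131 genes higher and 9 lower (0.834% of genes tested, 0.78% higher and 0.0536% lower). At 4 h, 0.774% of all genes tested were called higher. The 2 lists of rises shared 11 genes, 8.46% of the 4 h rises and 8.4% of the 1 h rises. These were MALL, HS3ST1, SPRY4, VEGFA, ZYX, TNFRSF10A, LRRC8A, FOSL1, DUSP5, MYADM and MAFF. None of the 9 genes lower at 1 h was called at 4 h. Of the 131 rises at 1 h, 106 were above 0 at 4 h, where 49.1% of all genes tested were above 0. The 131 had a median log2 fold change of 0.07 at 4 h and 0.36 at 1 h. All genes tested had medians of -0.003 at 4 h and 0.008 at 1 h. Read the other way, the 130 rises at 4 h had a median of 0.25 at 4 h and 0.07 at 1 h, where 114 of them were above 0, and the 49 falls had medians of -0.26 and -0.02, with 15 above 0 at 1 h. The difference between the times, described below with its test, was called for 7 of the 130 rises and 1 of the 49 falls, so most 4 h calls are not shown to differ from 1 h.

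MYADM, a myeloid-associated membrane protein, had like differences at both times. It had 78.1, 93.3 and 85.2 CPM after MSP, against 64.0, 65.5 and 65.1 CPM after vehicle at 4 h (log2 fold change 0.40, SE 0.05, adjusted p = 0.000726), and its log2 fold change at 1 h was 0.37. ZYX, a focal adhesion protein, stood at 0.31 at 4 h and 0.26 at 1 h. VEGFA stood at 0.21 at 4 h and 0.62 at 1 h, and DUSP5 at 0.26 and 0.72.

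The difference between the 4 h and the 1 h response was tested in the same model, as MSP minus vehicle at 4 h less MSP minus vehicle at 1 h. It was called for 54 genes (0.322% of genes tested), 46 lower and 8 higher at 4 h (0.274% and 0.0476%). Of the 46, 44 had risen at 1 h, and their medians were 0.02 at 4 h and 0.57 at 1 h. Immediate-early genes accounted for 15 of the 46. EGR1, a zinc finger transcription factor, had 47.3, 52.3 and 57.6 CPM 4 h after MSP and 50.2, 47.3 and 51.2 CPM after vehicle at 4 h. At 1 h it had 169, 196 and 182 CPM after MSP and 57.8, 71.7 and 69.2 CPM after vehicle, so that the groups overlapped at 4 h and stood well apart at 1 h. Its response was lower at 4 h by a log2 difference of -1.38 (SE 0.12, adjusted p = 1.25e-05 by edgeR). The differences of its relatives EGR2 and EGR3 were -1.75 and -1.42, that of CCN2, a matricellular protein, -1.48, that of RASD1, a RAS-related GTPase, -1.19 and that of FOS, the AP-1 subunit, -1.03.

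Of the 8 genes with a higher response at 4 h, 5 were called at 4 h and 1 at 1 h, where it was lower after MSP. LRP8, the receptor of reelin and apolipoprotein E, had 34.3, 38.5 and 36.7 CPM after MSP at 4 h, against 31.6, 26.9 and 25.4 CPM after vehicle, and a log2 fold change of 0.38 at 4 h and -0.07 at 1 h (difference 0.45, SE 0.09, adjusted p = 0.0126). HAS2, a hyaluronan synthase, had 56.3, 60.0 and 60.1 CPM after MSP at 4 h, against 44.5, 50.7 and 47.0 CPM after vehicle, with 0.31 at 4 h and -0.06 at 1 h (difference 0.37, SE 0.08, adjusted p = 0.0149). Both overlap a transcript on the other strand, MAGOH-DT and HAS2-AS1. LINC02725 differed by 0.81. The pseudogenes GAPDHP1, RPL10P9 and RPL24P4 differed by 1.16, 1.14 and 0.96. GAPDHP1 was at 0.60 at 4 h and -0.56 at 1 h, and neither passed the test on its own (adjusted p = 0.0693 and 0.153). The number of higher responses at 4 h rested on single libraries: it was 2 without replicate 1 and 22 without replicate 3 of MSP at 1 h, 3 without replicate 2 of MSP at 4 h, 4 without replicate 3 of vehicle at 4 h, and 5 without replicate 1 or 2 of vehicle at 1 h. Of the 6 genes named here, RPL24P4 kept the call of its time difference whichever library was left out. LINC02725 lost it in 6 of the 12 such fits, LRP8 and RPL10P9 in 5 each, and HAS2 and GAPDHP1 in 3 each, with adjusted p up to 0.105. Among falls at 4 h, IFIT2 had a tested difference of -0.36 (adjusted p = 0.0318).

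**Figure D3:**
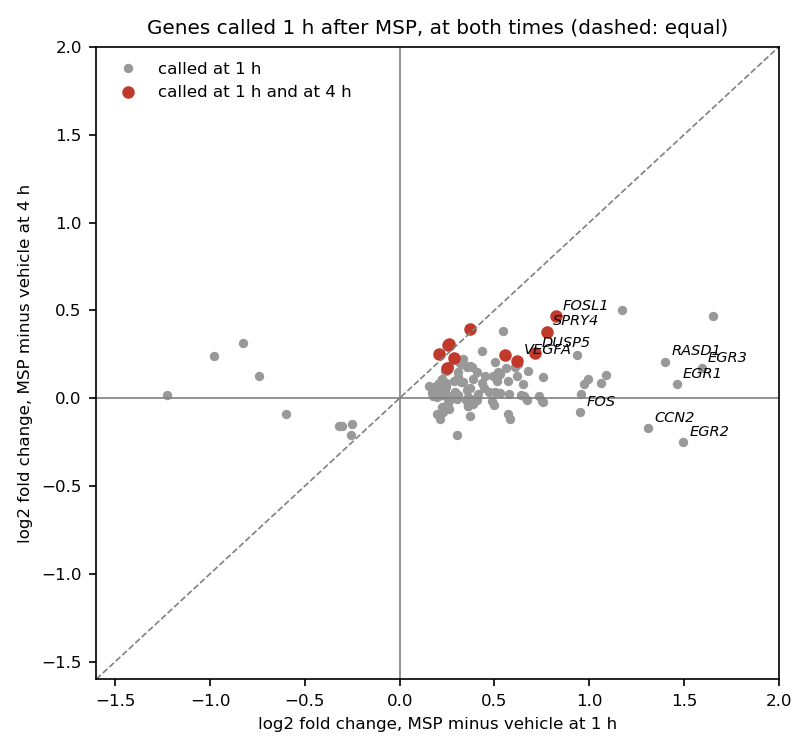
Log2 fold change of the genes called at 1 h, MSP minus vehicle at 1 h on the x axis and at 4 h on the y axis, with the 11 genes called at both times in red and a dashed line of equal values. EGR1, EGR2, EGR3, CCN2 and FOS lie to the right near 0 on the y axis. FOSL1 and MYADM are the highest on the y axis of the genes called at both times.

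Levels 4 h after HGF are set beside those of MSP, at doses that differ (100 ng/ml of MSP, 80 ng/ml of HGF). Cells given MSP differed from cells given HGF at 11154 genes (66.4% of genes tested, 5670 or 33.8% higher and 5484 or 32.7% lower after MSP). Scaled by library totals alone, without TMM, these were 8975 and 3320, 73% higher in place of 50.8%, and the median log2 difference of all genes was 0.37 in place of 0.07. With DESeq2 size factors the balance turned to more genes lower, 5351 higher and 5676 lower (48.5% higher). AKAP12 averaged 23.1 ± 5.21 CPM after MSP and 1077 ± 87.4 CPM after HGF (SD, n = 3 each), a log2 difference of -5.55 (SE 0.14, adjusted p = 5.17e-14 by edgeR). STC1 averaged 8.07 ± 0.60 CPM after MSP and 88.1 ± 2.70 CPM after HGF, FOSL1 42.4 ± 2.79 and 803 ± 13.1 CPM, and TPM4 502 ± 10.8 and 1511 ± 44.8 CPM. BMF averaged 20.6 ± 1.26 CPM after MSP and 0.69 ± 0.13 CPM after HGF, and PIK3IP1 47.9 ± 0.76 and 5.07 ± 0.89 CPM. MSP and HGF have the same vehicle libraries, so their directions against vehicle are not counted together here. RAB7B was at a higher level after MSP than after HGF (log2 difference 0.64, adjusted p = 1.05e-05), whereas RPL24P4 and ELAPOR1 did not pass the test between the ligands (0.23 and 0.16, SE 0.13 and 0.12, adjusted p = 0.121 and 0.221). Scaled by library totals, RPL24P4 and ELAPOR1 passed it, at 0.53 and 0.46 (adjusted p = 0.000574 and 0.000857).

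How many genes were called depended on single libraries. Without MSP replicate 2 the fit called 13 rises and 3 falls, without vehicle replicate 3 it called 13 and 7, and without vehicle replicate 2 it called 23 and 9. Without MSP replicate 3 it called 57 and 26, and without MSP replicate 1 it called 99 and 26. Without vehicle replicate 1 there were more calls, 159 rises and 61 falls. Of the 179 genes called with all libraries, 110, 16 and 80 were still called without MSP replicates 1, 2 and 3, and 141, 26 and 20 without vehicle replicates 1, 2 and 3. The smallest ratio of a log2 fold change in these fits to its value with all libraries was 0.655 over the 179 genes. The median log2 fold change of the 130 rises ranged from 0.23 without MSP replicate 2 to 0.29 without vehicle replicate 1.

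In a principal component analysis of the 6 libraries the first axis carried 27.6% of the variance and ordered them from MSP replicate 2 (25.2), MSP replicate 3 (9.37) and MSP replicate 1 (5.44) to vehicle replicates 1 (-1.86), 2 (-18.3) and 3 (-19.9). The second axis carried 21.5%, and vehicle replicate 1 stood farthest along it (27.3). Among the 130 rises, vehicle replicate 1 was the highest vehicle library in 97 and MSP replicate 1 the lowest MSP library in 86. Among the 49 falls, vehicle replicate 1 was the lowest vehicle library in 29 and MSP replicate 3 the highest MSP library in 27. Chi-square values per degree of freedom between replicates were 3.65 to 4.81 within MSP and 3.83 to 5.47 within vehicle, so no pair agreed within counting noise as a library deposited more than once would.

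**Figure D4:**
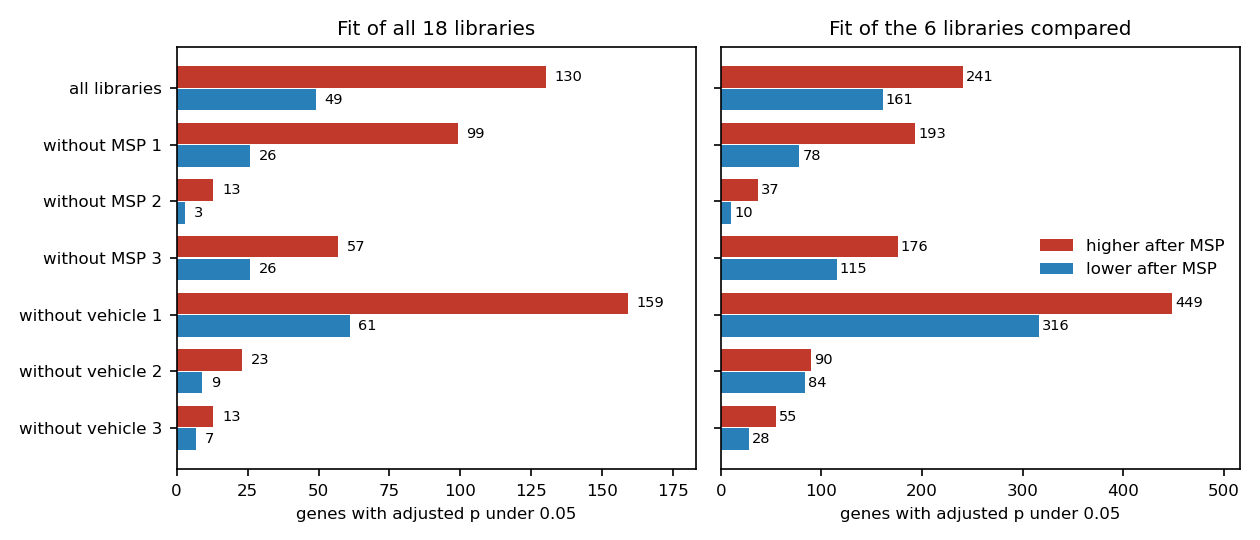
Number of genes higher (red) and lower (blue) after MSP at 4 h, with all libraries and without each library in turn, in the fit of all 18 libraries (left) and in a fit of the 6 libraries compared (right), on axes with different ranges. In both fits the fewest genes are called without MSP 2 and the most without vehicle 1.

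A fit of only the 6 libraries compared called 241 rises and 161 falls and held 174 of the 179 genes. Leaving out the same 3 libraries gave the fewest calls there too: 37 and 10 without MSP replicate 2, 55 and 28 without vehicle replicate 3, and 90 and 84 without vehicle replicate 2. Without vehicle replicate 1 it called 449 and 316.

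Of the 179 genes, 12 were called in all 6 fits that left out 1 library, 9 higher and 3 lower. The rises were LINC02725, STC1, MFSD12, MYADM, APBB2, NRP2, NOP56, DKC1 and TPM4, and the falls were BMF, PIK3IP1 and IFIT2. NRP2, a co-receptor of VEGF and semaphorins, had 43.1, 48.8 and 46.9 CPM after MSP, against 36.1, 36.2 and 36.9 CPM after vehicle (log2 fold change 0.34, SE 0.05, adjusted p = 0.00076). NOP56, a core protein of box C/D ribonucleoproteins in the nucleolus, had 193, 207 and 188 CPM after MSP and 166, 156 and 151 CPM after vehicle (log2 fold change 0.31, SE 0.05). DKC1, the pseudouridine synthase dyskerin, had 176, 192 and 184 CPM after MSP and 161, 150 and 144 CPM after vehicle (log2 fold change 0.28, SE 0.04). APBB2, an adaptor that binds the amyloid precursor protein, had 65.8, 70.4 and 69.3 CPM after MSP and 55.0, 52.6 and 53.4 CPM after vehicle (log2 fold change 0.35, SE 0.05). MFSD12, a lysosomal transporter of cysteine, had 87.2, 89.9 and 92.3 CPM after MSP and 69.0, 66.2 and 68.7 CPM after vehicle (log2 fold change 0.40, SE 0.07). At the other end, 20 of the 179 genes lost their call in every one of the 6 fits and 45 kept it in 1.

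**Figure D5:**
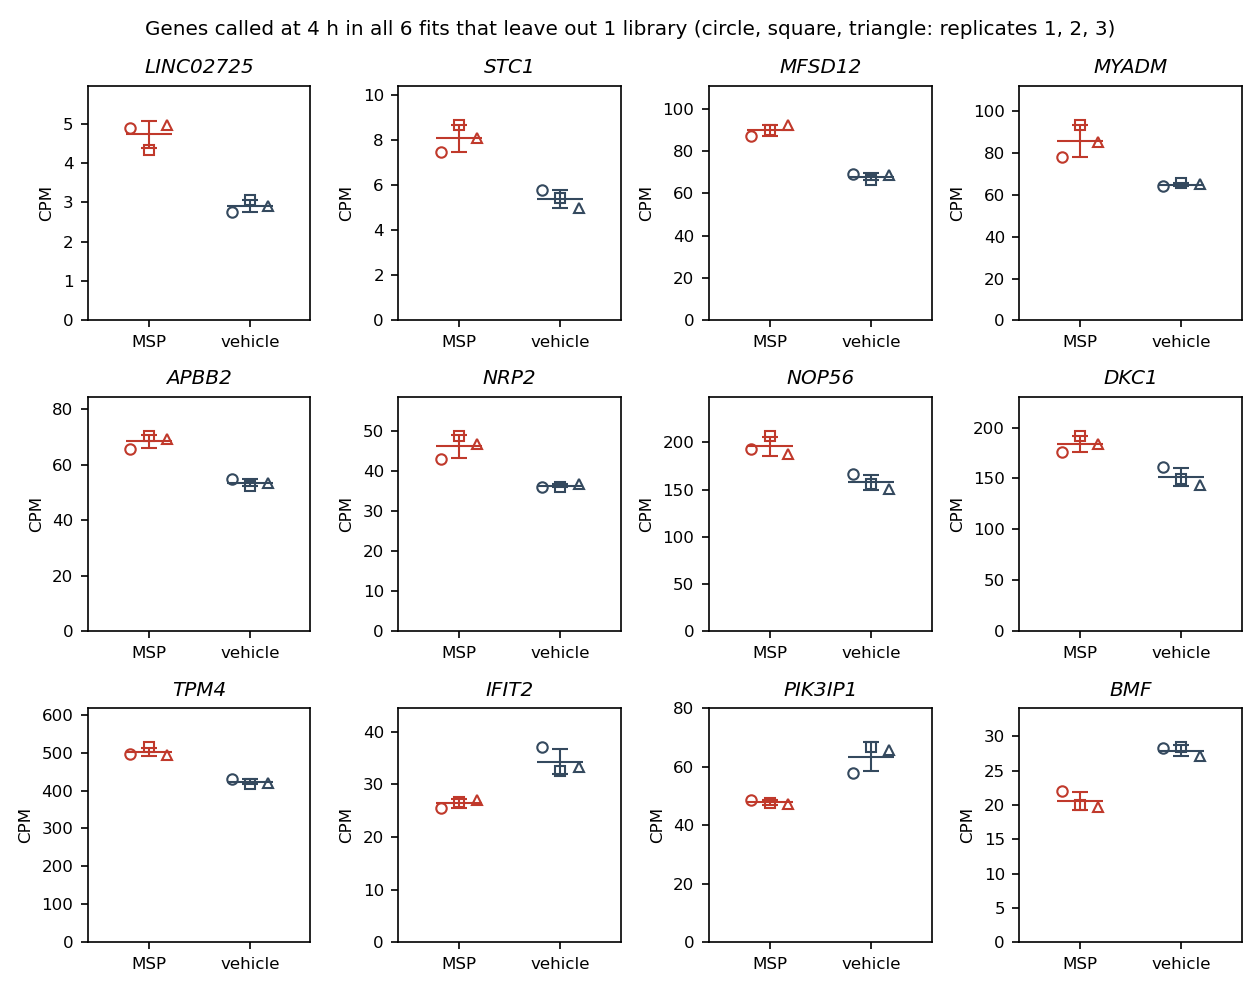
CPM of the 12 genes called in all 6 fits that leave out 1 library, MSP and vehicle at 4 h, with each library as a symbol, the mean as a line and the SD as a bar (n = 3), on axes that start at 0. The 9 genes that rose and the 3 that fell show no overlap between the groups. The difference is small beside the level for TPM4, at 495 to 514 CPM after MSP and 418 to 430 CPM after vehicle. It is larger for LINC02725, with a log2 fold change of 0.70 beside 0.25 for TPM4.

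Several of the larger changes lost their call more easily than these 12 genes. AKAP12 lost its call without vehicle replicate 2 or 3 and in fits of the 6 libraries or of the 3 groups at 4 h (adjusted p up to 0.0939), with log2 fold changes of 0.77 to 1.10 over all alternatives. TAGLN lost it without vehicle replicate 2 or 3 or any MSP library, and ranged from 0.52 to 0.97. SH2D5, RPL24P4 and EEF1A1P12 lost theirs whichever single library was left out. FOSL1, FOXP2, PAQR5, ACTN1, AEN, ODC1, HK2 and HSPA8 lost theirs without replicate 2 or 3 of either group, and MMP13, RAB7B and ELAPOR1 also without MSP replicate 1. VEGFA kept its call without vehicle replicate 2 or MSP replicate 3 only, SPRY4 without MSP replicate 1 only, MVB12B without MSP replicate 3 only, TMEM158 without vehicle replicate 1 only and RPL17P18 without MSP replicate 1 or 3 only. DUSP5, MDGA1 and RPSAP52 lost theirs without vehicle replicate 3 or MSP replicate 2, LRP8 without vehicle replicate 3 only and HAS2 without MSP replicate 2 only. FBXO32, STAT2, SLC40A1, SORBS2, TNFRSF12A, ACTB and ZYX lost theirs when MSP replicate 2 or either of vehicle replicates 2 and 3 was left out, and PLSCR4 only without MSP replicate 2.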

How the data were processed

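RNA was sequenced from BxPC-3 cells in 6 groups of 3 libraries. Per the labels' protocols, the KAPA mRNA HyperPrep kit was used and each library ran in 2 lanes, which the deposited table holds as 1 column a sample. The deposited values are whole-number counts per Ensembl gene, made by the authors with STAR and featureCounts of Subread per the submitters' processing notes. No genome build, annotation release or strand setting is stated (not given in the sources used here). Of 58395 identifiers, 57754 matched a gene name table and 58275 matched GENCODE 29 (GRCh38), the source of gene positions, and 0 lines named no gene. Among 43 named genes tested, 11 overlap a tested gene on the opposite strand and 0 on the same strand.

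Genes were kept by filterByExpr (minimum count 10, minimum total 15), which took away no more than 0.0573% of the counts in any library. The 18 libraries were scaled by TMM and fitted in edgeR 4.0.16 (R 4.3.3) by robust quasi-likelihood with 1 mean per group (residual df 12, biological coefficient of variation 5.23%). P-values were adjusted by Benjamini-Hochberg over 16794 genes, at 0.05. The SE is the absolute log2 fold change over the square root of the F statistic. Alternatives used DESeq2 1.42.0 and limma 3.58.1. The fit was tested on simulated data drawn from its own means and dispersions, which cannot show how calls depend on single libraries.

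The comparison, gene lists and rules were chosen with earlier results of these data known. Genes named are the 14 largest rises and 10 largest falls (mean of at least 1 CPM, groups not overlapping), up to 3 called members a list (12 in all), MET, MST1R, HGF and MST1, and 6 and 6 for the change with time. Those called at both times or in every fit leaving out a library, and other list members, were chosen after their values were seen.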

Additional observations from a re-analysis of the deposited data

Results flagged for a closer look

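The MSP response was tested for a difference between 4 h and 1 h, and the genes described above that passed are given here as log2 fold change at 4 h minus that at 1 h. Lower responses at 4 h were found for EGR2 (-1.75), CCN2 (-1.48), EGR3 (-1.42), EGR1 (-1.38), RASD1 (-1.19), FOS (-1.03), DUSP5 (-0.46), VEGFA (-0.41) and IFIT2 (-0.36). Of these, IFIT2 is the gene that had fallen at 4 h, and DUSP5 and VEGFA were still higher after MSP at 4 h. Higher responses at 4 h were found for HAS2 (0.37), LRP8 (0.45), LINC02725 (0.81), RPL24P4 (0.96), RPL10P9 (1.14) and GAPDHP1 (1.16). Of these, only RPL24P4 kept its call whichever library was left out. The last 3 are processed pseudogenes, whose reads may belong to their parent genes. With 3 libraries a group, single libraries were not tested for standing apart from the others of their group.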

How the results depend on the processing

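No log2 fold change that had passed its test changed sign. Other alternatives moved the number of genes called between MSP and vehicle at 4 h. Without a filter on low counts it was 354 (252 higher, 102 lower), by DESeq2's Wald test 310 (209, 101), by limma voom with quality weights 482 (303, 179), with only the 2 groups 402 (241, 161) and with the 3 groups at 4 h 371 (252, 119). DESeq2 size factors gave 174, library totals 202, a mean of 1 CPM 191 and no robust estimation 161. Leaving out 1 library gave 16 to 220 (13 to 159 higher, 3 to 61 lower) in the full fit and 47 to 765 (37 to 449, 10 to 316) in the fit of the 2 groups. The change between 1 h and 4 h was called for 148 genes without a filter (72, 76), 102 by DESeq2 (30, 72), 160 by voom (66, 94), 57 in its own groups (18 higher) and 41 to 81 with a library left out (2 to 22 higher, 34 to 59 lower). MSP against HGF gave 8975 higher and 3320 lower with library totals, and more lower than higher with DESeq2 size factors (5351, 5676), by the Wald test (5238, 5637) and without a filter (5526, 5620). Samples of like number in the 2 groups at 4 h deviated little together (correlations -0.02, 0.03 and 0.06). With 3 libraries a group these values cannot exclude that the numbers pair the samples. A replicate block gave 228 calls (162, 66) at 4 h and 71 for the change with time.

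For MSP against vehicle at 4 h, LINC02725, STC1, BMF, PIK3IP1, IFIT2 and TPM4 were called under all 16 alternatives, and MET and MST1R under none. Of the values of single genes and list counts over all alternatives, 1424 stayed on the same side, 127 lost their call, 2 gained one and 118 list counts moved. The cause was not tested. With 3 libraries a group, genes outside the calls are not shown to be without a change.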

Other observations

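Some rises shared the start of their symbol. The groups given here were formed by symbol after the values were seen, so they have no test and name no common function. Over all genes tested, 49.1% were above 0, 0.774% were called higher and 0.292% lower. The processing factors named RRP were above 0 in 8 of 8 tested, with a median log2 fold change of 0.19 and calls for RRP9 and RRP12. Genes named NOP were above 0 in 6 of 7 (median 0.12, called NOP16 and NOP56), NOL in 7 of 8 (median 0.08, called NOL6 and NOLC1), PUS, the pseudouridine synthases, in 4 of 5 (median 0.11, called PUS1 and PUS7), and UTP, of the small-subunit processome, in 9 of 11 (median 0.08, no call). Subunits of RNA polymerase I, named POLR1, were above 0 in 6 of 8 (median 0.08, no call). The DDX helicases were above 0 in 22 of 30 (median 0.07, called DDX21). The ribosomal protein genes named RPL or RPS were above 0 in 56 of 75 (median 0.01, no call). The WDR genes, grouped by a protein fold, were above 0 in 29 of 53 (median 0.01, called WDR4 and WDR43). None of these groups held a gene called lower. At 1 h their medians lay between 0 and 0.08.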
